A study of Arabidopsis thaliana with 2 samples.

Results

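The brightest nuclear transcripts of young Arabidopsis leaves were described through the 200 probe sets with the highest mean signal over both arrays, out of 22746 Arabidopsis probe sets. A probe set is the group of short probes on an array that reads 1 transcript, and its signal is a brightness in arbitrary MAS5 units. Control probe sets, probe sets assigned to plastid-encoded genes and 10 nuclear photosynthesis genes were left out before ranking, which left 22659 candidates. The 200 members were chosen by this mean signal, so their brightness is a description and not a finding. A probe set could enter through the array where it was high, so the choice also bears on which differences are found among members. The genes left out by name were LHCB4.1, LHCB4.3, PSAE-1, PSAN, PSBW, PSBY, ATPC1, RCA, PRK and SBPASE, and 9 of these 10 were bright enough to have been members, as were 28 of the 77 plastid probe sets.

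RNA came from Arabidopsis thaliana at developmental stage 6.50, from the 4 rosette leaves that were youngest. One group was the wild-type accession Ws-0, and the other was BOUNTIFUL, a gain-of-function line in the Ws-0 background with an I/dSpm activation tag at BOU, an insertion meant to raise the activity of nearby genes. The glasshouse was kept at 23 °C with days of 16 h, and both genotypes stood on compost. There was 1 array per genotype, so no difference was tested, no spread between plants is known, and each value below compares one RNA sample with another. The number of plants behind each RNA sample and the locus of BOU are not given in the labels. Fewer cells of a type and less RNA per cell cannot be told apart in whole leaves.

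A growing leaf devotes much of its messenger RNA to photosynthesis and to the pathways that surround it. Light energy is captured in the thylakoid membranes of the chloroplast, carbon is fixed in the Calvin cycle, and the oxygenation side reaction of Rubisco is repaired by photorespiration, which runs through chloroplasts, peroxisomes and mitochondria. Thioredoxins, glutaredoxins and peroxiredoxins carry and buffer the redox state of these compartments. Sugar exporters release sucrose from leaf cells towards the phloem. In Arabidopsis and its relatives glucosinolates are made as defence compounds against herbivores.

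The function of most members could not be read from the annotation used here. Of the 200 members, 41 were assigned to 1 gene, 5 to several genes and 154 were not listed, 77.0% against 38.4% of all Arabidopsis probe sets. The annotation does not say which unlisted probe sets, if any, read plastid genes. Of the 41 members with 1 gene, 16 carry a gene name or a descriptive synonym in the gene table, and 3 more were placed in a functional list by their locus. The other 22 have a locus only, and are given by locus with no function.

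The members held 17.1% of the summed signal of all Arabidopsis probe sets on the BOUNTIFUL array and 17.6% on the Ws-0 array. The 50 brightest members held 5.83% and 6.46%. Brightness also depends on the probes, so the order of members is an order of signals and not of transcript numbers. The mean signal of members ran from 5428 units for the unlisted probe set 261438_at to 1697 units for AT3G51730. Just inside the limit stood the unlisted probe sets 262784_at at 1701 and 254764_at at 1699 units, and just outside it 251257_at at 1691, 259098_at at 1686 and 245094_at at 1682 units. The limit therefore fell within a continuous run of signals. Of the 200 members, 151 were among the 200 brightest of both arrays, 23 of BOUNTIFUL alone and 26 of Ws-0 alone.

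Differences were computed as log2 ratios, BOUNTIFUL minus Ws-0, of the signal plus a pseudocount of 7.77 units. At least 2-fold higher in BOUNTIFUL were 7 members (3.50%), against 4.63% of the 11373 probe sets that passed the brightness filter. At least 2-fold lower were 4 members (2.00%), against 3.98%. Together this made 11 members, 5.50% against 8.62%, and among the next 200 probe sets in the ranking 15 differed by 2-fold, 7.50%. From 1.5-fold, 36 members differed (18.0%), against 24.9% of passing probe sets. The share of members that differed thus lay below that of passing probe sets at both limits, a difference that was not tested. The members' median log2 ratio of -0.07 lay beside -0.06 for passing probe sets, and 86 members were above 0 and 114 below. All 11 members that differed by 2-fold were among the 200 brightest of 1 array only, so they entered through the array where they were high. The direction of the 2-fold differences rested on ranking by the mean, since the 200 brightest probe sets of Ws-0 alone held 0 higher and 10 lower, and those of BOUNTIFUL alone 12 higher and 0 lower.

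**Figure D1:**
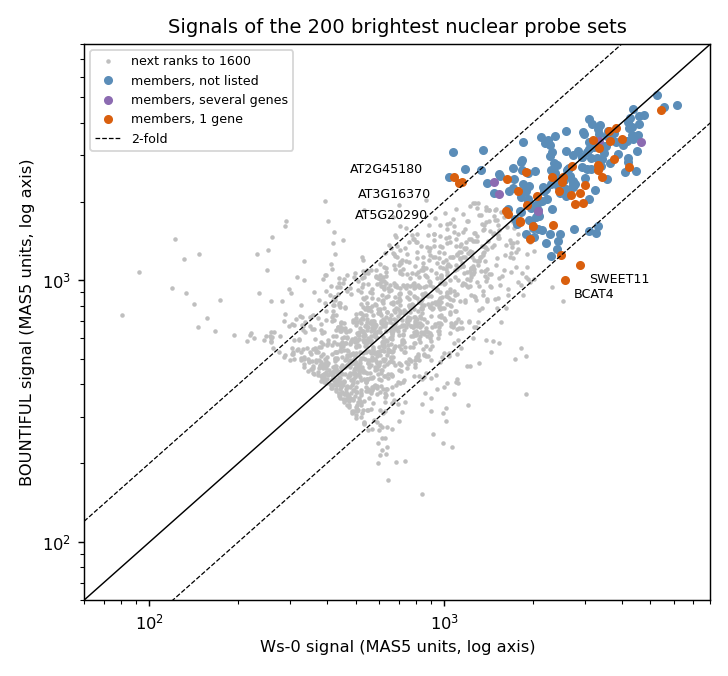
Signal on the BOUNTIFUL array against signal on the Ws-0 array, in MAS5 units on log axes, for the 200 members (coloured by how the annotation names them) and for the following ranks to 1600 (grey), with 1 point per probe set. The solid line marks equal signals and the dashed lines a 2-fold difference. SWEET11 and BCAT4 lie below the lower dashed line, and AT2G45180, AT3G16370 and AT5G20290 above the upper one.

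The differences widened down the ranking of the members. None of the 100 brightest members differed by 2-fold, while 5 of ranks 101 to 150 and 6 of ranks 151 to 200 did. The SD of the log2 ratio over probe sets was 0.25 in ranks 1 to 50, 0.35 in ranks 51 to 100, 0.55 in ranks 101 to 150 and 0.60 in ranks 151 to 200. It was 0.61 over the next 200 probe sets and 0.62 over all passing probe sets. Further down it was 0.68 in ranks 401 to 600, 0.80 in ranks 601 to 800 and 0.76 in ranks 801 to 1000. In ranks 1001 to 1200, 1201 to 1400 and 1401 to 1600 it was 0.70, 0.66 and 0.78, with no steady rise past rank 800. The 50 brightest members also leaned to lower values in BOUNTIFUL, with 38 below 0, 12 above and a median of -0.12. Below 0 were 24 members of ranks 51 to 100, 24 of ranks 101 to 150 and 28 of ranks 151 to 200, and 55.1% of all passing probe sets. With the newer hybridisation spikes set equal, as described further on, the median of the 50 brightest was 0.23, and with quantile normalisation it was 0.0067.

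**Figure D2:**
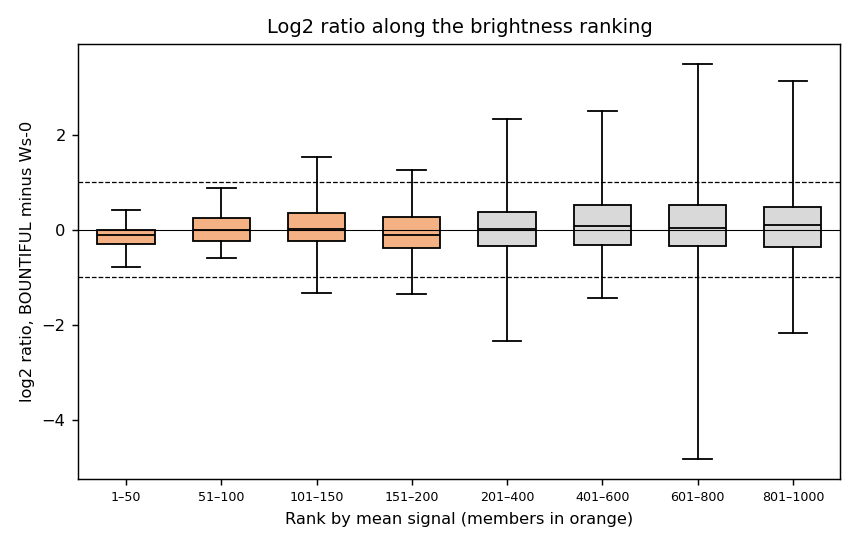
Log2 ratio (BOUNTIFUL minus Ws-0) in blocks of the brightness ranking, members in orange. Boxes span the quartiles with the median as a line, whiskers reach the lowest and highest probe set, and dashed lines mark 2-fold. The box of ranks 1 to 50 is the narrowest and lies mostly below 0, and those of ranks 101 to 200 approach the width of ranks 201 to 400.

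Scaling by hybridisation spikes changed the sign of most small negative differences, and other scalings changed fewer. Hybridisation spikes are bacterial and phage transcripts meant to be added in equal amounts to each hybridisation mix, and their 9 newer probe sets had a mean log2 ratio of -0.35 and their 9 older ones of -0.55. Of these 18 probe sets 3 were as bright as the members, with a mean of -0.36. With the newer spikes set equal, 14 members were 2-fold higher and none lower, and the median was 0.29 against 0.27 for all passing probe sets. Setting the older ones equal gave 27 higher and none lower, with medians of 0.48 and 0.45. Under both, the members shifted with the whole array. Deposited ratios between about -0.35 and 0 turn positive under the first, and those between about -0.55 and 0 under the second.

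**Figure D3:**
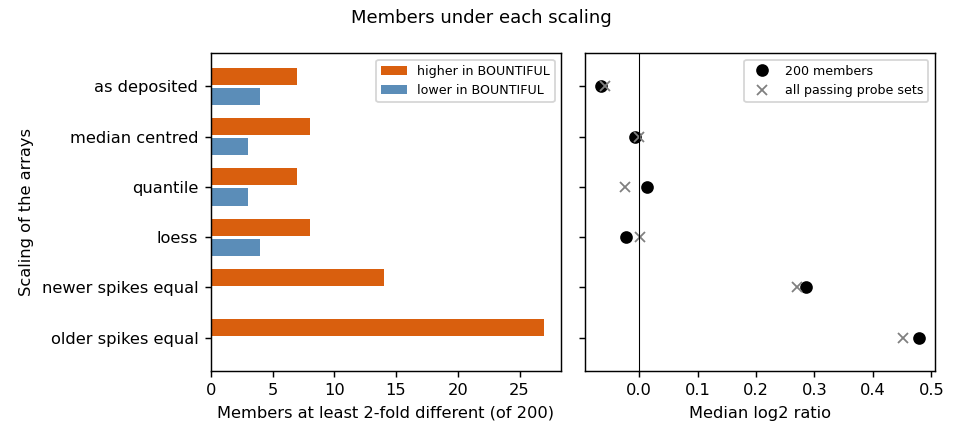
Left, number of members (of 200) at least 2-fold higher or lower in BOUNTIFUL under each scaling of the arrays. Right, the median log2 ratio of the members (filled points) and of all passing probe sets (crosses). The counts change from 7 higher and 4 lower as deposited to 27 higher and 0 lower with the older spikes set equal, and the medians of members and passing probe sets shift together.

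The 16 members that carry a name leaned to lower signals in BOUNTIFUL on the deposited scale. Of these 16, 15 had log2 ratios below 0 and 1 above, with a median of -0.29, and 2 were at least 2-fold lower. Among the other 25 members with 1 gene, 13 were above 0 and 12 below, with a median of 0.0096, and 3 were at least 2-fold higher. Of all passing probe sets 55.1% were below 0, 3.98% were 2-fold lower and 4.63% 2-fold higher. Carrying a name is a trait of the annotation, and the difference between both groups was not tested. The count of named members below 0 was 13 with median centring, 12 with quantile normalisation and 13 with loess, but 6 once the newer and 3 once the older spikes were made equal.

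**Figure D4:**
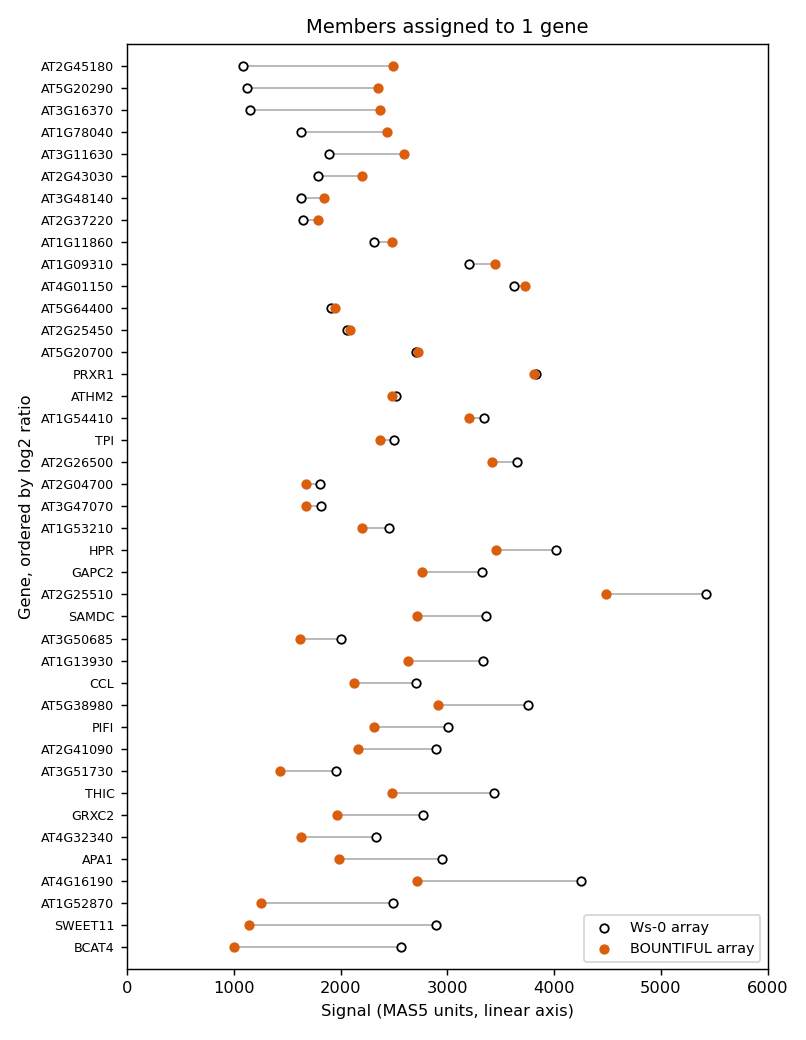
Signal on the Ws-0 array (open circles) and the BOUNTIFUL array (filled circles), in MAS5 units on a linear axis, for the 41 members assigned to 1 gene, ordered from the lowest log2 ratio (BCAT4, bottom) to the highest (AT2G45180, top). Grey lines join both values of a gene. The longest relative distances are those of BCAT4 and SWEET11, lower in BOUNTIFUL, and of AT2G45180, AT5G20290 and AT3G16370, higher in BOUNTIFUL.

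Of the thylakoid, AT4G01150, which the gene table also names CURT1A, stood at rank 23 with 3728 units in BOUNTIFUL against 3624 in Ws-0 (log2 ratio 0.04). CURT1A bends the thylakoid membrane at the margins of the grana stacks. PIFI, a chloroplast protein needed for a rise in chlorophyll fluorescence after light is switched off, read 2317 and 3007 units, a log2 ratio of -0.38. The electron transport and ATP synthase list of 42 genes had 10 named probe sets that passed the filter, of which 1 was 2-fold higher and none lower, and these members were 2 of them. For this list and those below, the shares over all passing probe sets were 4.63% higher and 3.98% lower, and no list was tested against them. The antenna and photosystem lists held no member, which follows in part from the genes left out by name. The antenna list of 23 genes had only 3 named probe sets and the photosystem list of 54 genes only 8. Most of their genes could thus not be read by name, and unlisted members may read some of them.

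Photorespiration was represented on both sides of 0. HPR, the peroxisomal hydroxypyruvate reductase, which returns the carbon of glycolate towards glycerate, stood at rank 21, at 3454 units in BOUNTIFUL against 4015 in Ws-0 (log2 ratio -0.22). AT1G11860, placed in the photorespiration list by its locus, read 2485 and 2312 units, a log2 ratio of 0.10. All 5 named probe sets of this list passed the filter and none differed by 2-fold. The difference of HPR turned to 0.14 with the newer spikes set equal.

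Of the 17 members that could be placed in a list, 4 were redox genes. PRXR1, a class III peroxidase of the secretory pathway, was the brightest member with a symbol, at 3814 units in BOUNTIFUL against 3830.0 in Ws-0 (log2 ratio -0.0060). ATHM2, the chloroplast thioredoxin m2, read 2483 and 2523 units, a log2 ratio of -0.02. These were among the smallest differences of all named members. GRXC2, a glutaredoxin that reduces disulfides with glutathione, was lower, at 1964 against 2768 units and a log2 ratio of -0.49. AT3G11630, in the redox list by its locus, was higher, at 2591 against 1891 units and a log2 ratio of 0.45. The median of the 4 was -0.01, and 1 of the 24 passing probe sets of the list was 2-fold lower in BOUNTIFUL and none higher. The redox members thus lay on both sides of 0 on the deposited scale.

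The 2 members placed in the sugar, starch and respiration list were genes of cytosolic glycolysis. Which carbon pathways the unlisted members belong to is not known. GAPC2, a cytosolic glyceraldehyde-3-phosphate dehydrogenase, read 2765 units in BOUNTIFUL against 3327 in Ws-0 (log2 ratio -0.27). TPI, the cytosolic triosephosphate isomerase, read 2371 and 2502 units, a log2 ratio of -0.08. Both turned positive with the newer spikes set equal, at 0.09 and 0.27. The array control probe sets for GAPDH were higher in BOUNTIFUL on the deposited scale, with log2 ratios from 0.08 to 0.30. Which GAPDH gene these control probe sets read was not checked. Of the 28 passing probe sets in the sugar, starch and respiration list 1 was 2-fold lower and none higher.

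Both members for cofactor and polyamine synthesis were lower in BOUNTIFUL on the deposited scale. THIC makes the pyrimidine part of thiamine in the chloroplast, and had 2484 units against 3438, a log2 ratio of -0.47. SAMDC, an S-adenosylmethionine decarboxylase that supplies the aminopropyl groups of spermidine and spermine, had 2712 against 3357, a log2 ratio of -0.31. With the newer spikes set equal these were -0.12 and 0.04. The list they belong to, amino acid, sulfur and one-carbon metabolism, had 6 passing probe sets with a median of -0.46, of which 1 was 2-fold lower and none higher.

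A protease, an RNA-binding protein gene and a dehydrin followed. APA1, an aspartic protease of the vacuole, read 1982 units in BOUNTIFUL against 2953 in Ws-0 (log2 ratio -0.57). This ratio was also below 0 under both spike scalings (-0.22 and -0.03). AT2G37220, in the list of RNA binding and chromatin by its locus, had 1788 and 1649 units, a log2 ratio of 0.12. AT1G54410, which the gene table describes as the dehydrin HIRD11, had 3203 and 3346 units, a log2 ratio of -0.06. Dehydrins are hydrophilic proteins known for protecting cells as they lose water. CCL, named CCR-like and known for a short-lived transcript under control of the circadian clock, had 2124 and 2702 units, a log2 ratio of -0.35.

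The transport genes differed in the size of their log2 ratios. SWEET11, which exports sucrose from leaf cells towards the phloem, read 1142 units in BOUNTIFUL against 2896 in Ws-0 (log2 ratio -1.34). It ranked 83rd among candidate probe sets on the Ws-0 array and 404th on the BOUNTIFUL array. AT1G53210, which the gene table names NCL, a sodium and calcium exchanger, had 2196 and 2455 units, a log2 ratio of -0.16. The list of water channels, pumps and carriers had 20 passing probe sets, of which 3 were 2-fold higher and 1, SWEET11, lower.

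The lowest log2 ratio among all members was that of the 1 member placed in the list of glucosinolates, lectins and defence. Members with a locus only and unlisted members may include other genes of glucosinolate synthesis. BCAT4, the aminotransferase that starts the chain elongation of methionine for aliphatic glucosinolates, read 1005 units in BOUNTIFUL against 2561 in Ws-0 (log2 ratio -1.34), and ranked 507th and 103rd on these arrays. With the spikes set equal, SWEET11 and BCAT4 were at -0.99 and -0.99 under the newer and -0.79 and -0.80 under the older set, below 0 but short of 2-fold. The list of glucosinolates, lectins and defence had 29 passing probe sets, of which 9 were 2-fold higher and 3, BCAT4 among them, lower. Over all passing probe sets the shares were 4.63% and 3.98%, and the difference was not tested. It holds lectin and defence genes beside those of glucosinolate synthesis.

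Among the 22 members with a locus and no function given here, 3 were at least 2-fold higher in BOUNTIFUL. AT2G45180 had 2491 units against 1081, a log2 ratio of 1.20. AT5G20290 had 2349.8 against 1125, a log2 ratio of 1.06, and AT3G16370 had 2371 against 1150.1, a log2 ratio of 1.04. Their ranks among candidates were 421, 394 and 381 on the Ws-0 array and 108, 124 and 119 on the BOUNTIFUL array. They stayed 2-fold higher under each scaling tried. Both spike scalings raise every BOUNTIFUL signal by 1 factor, so under them these genes could only rise. The values were 1.55, 1.41 and 1.39 (newer) and 1.74, 1.60 and 1.58 (older) in the same gene order. With quantile normalisation, which can also lower a ratio, they were 1.20, 1.05 and 1.04.

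A further pair of locus-only members was lower in BOUNTIFUL by more than 1.5-fold. AT1G52870 read 1251 units in BOUNTIFUL against 2491 in Ws-0 (log2 ratio -0.99), just short of 2-fold. AT4G16190, among the 50 brightest members, had 2711 and 4247 units, a log2 ratio of -0.65. The other 17 members of this kind differed by less than 1.5-fold, with 7 above 0 and 10 below, from -0.51 for AT4G32340 (1629 against 2331 units) to 0.58 for AT1G78040 (2438 against 1628 units).

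AT2G25510 was the brightest member with 1 gene, at rank 4, with 4482 units in BOUNTIFUL against 5424 in Ws-0 (log2 ratio -0.27). Lower on the deposited scale were also AT3G51730 (-0.45), AT2G41090 (-0.42), AT5G38980 (-0.37), AT1G13930 (-0.34) and AT3G50685 (-0.31). AT3G47070 (-0.11), AT2G04700 (-0.11) and AT2G26500 (-0.09) were close to 0. Above 0 were AT2G43030 (0.30), AT3G48140 (0.18), AT1G09310 (0.10), AT5G64400 (0.03), AT2G25450 (0.02) and AT5G20700 (0.0096). Of these 15 genes the ones below 0 but above about -0.35 turn positive with the newer spikes set equal.

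The 154 unlisted members and the 5 with several genes complete the set. The unlisted ones had a median log2 ratio of -0.05, with 69 above 0 and 85 below, and 6 differed by 2-fold, each given here because of that difference. Probe set 248151_at had the highest log2 ratio of all members, 1.52, with 3081 units in BOUNTIFUL against 1068 in Ws-0. Probe sets 259491_at (1.26), 255997_s_at (1.22) and 264371_at (1.17) were higher too, with 2492, 3159 and 2660.1 units in BOUNTIFUL. Lower were 261144_s_at, at 1516 against 3275 units and -1.11, and 261979_at, at 1620 against 3332 units and -1.04. With the newer and the older spikes set equal, 261144_s_at was at -0.76 and -0.56 and 261979_at at -0.69 and -0.49, short of 2-fold. Probe set 261979_at was also short of it with median centring (-0.98) and quantile normalisation (-0.98). The 5 members with several genes ran from -0.46 to 0.68.

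Some of these readings may combine several transcripts. A suffix that marks probes shared by several transcripts was carried by 20 members (10.0%), against 4.66% of all Arabidopsis probe sets, and by none of the 41 members with 1 gene. Members with the suffix had a median log2 ratio of 0.00085 and the 180 without it of -0.08. Chromosome and gene length were known for 41 of 200 members (20.5%), under the 80% set as the least for such a description, so a check of these features is void.

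The leaf label was checked against the markers that had a named probe set. RCA and PRK, genes of carbon fixation in mesophyll and the only 2 of 7 mesophyll markers with one, had mean signals of 4040 and 3960 units. Of 18 markers of other tissues or ages 7 had a named probe set, with mean signals from 1.73 units for the floral gene UFO to 67.4 for the stomatal lineage gene FMA. The markers of senescence, seed and phloem had none, so leaf age and these tissues were not checked. The root gene PYK10 stood at 56.5 against 13.6 units, higher in BOUNTIFUL, and its part in the results was not tested. The summed signal of these 7 was 160 units in BOUNTIFUL and 156 in Ws-0. Control probe sets for Bacillus subtilis genes reached 21.9 and 16.7 units, far below every member.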

How the data were processed

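Biotin-labelled cRNA of 1 RNA sample per genotype was hybridised to 1 Affymetrix ATH1 array each. The authors made the deposited intensity values with MAS5, per the submitters' processing notes (version not given in the sources used here). Their trimmed mean was 100.0 on both arrays (2% cut at each end), so they had been scaled before deposit, and no further scaling was applied for the main values.

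Log2 ratios used a pseudocount at the 20th percentile of all signals (Python 3.11.15, numpy 2.4.6). Passing probe sets had a mean signal of at least 39.9 units, the median. With 1 array per genotype no test was made, and the number of arrays limits the precision. Names came from a platform annotation of 2016 and the TAIR10.1 gene table, in which all 41 members with 1 gene were matched.

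The members and the 19 functional lists were chosen with earlier results of these data known. SAMDC, THIC, TPI and PIFI matched a wrong list through letters of their names or another isoform and were moved after their names were seen. Named genes were the 20 brightest, the 15 highest and the 15 lowest by log2 ratio among members with 1 gene, and list members, 38 of 41. AT1G53210, AT3G47070, AT2G04700 and all unlisted probe sets given by number were added after their values were seen. Alternatives were other scalings (median centring, quantile, loess with a span of 0.3, spikes), pseudocounts, rankings and numbers of members.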

Additional observations from a re-analysis of the deposited data

How the results depend on the processing

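No paired analysis was possible because there was a single array for each group, so none could be left out either. In the main setting 11 members were 2-fold different, 7 higher and 4 lower, with a median log2 ratio of -0.07. The median was 0.013 with quantile normalisation, 0.29 with the newer spikes set equal (14 higher, 0 lower) and 0.48 with the older (27 higher, 0 lower, 27 in all), since each spike scaling multiplies every BOUNTIFUL signal by 1 factor. The redox median went from -0.01 to 0.53 with the older spikes. The choice of members changed the counts by its own construction. The 100 brightest gave 0 different members, 0 higher and 0 lower, and the 400 brightest 26, 14 and 12. Ranking by the lower of both signals gave 2, all lower (0 higher). Ranking by Ws-0 alone gave 0 higher and 10 lower with a median of -0.16, and by BOUNTIFUL alone 12 higher and 0 lower with a median of 0.020. A limit of 1.5-fold gave 36. The share of summed signal was 10.5% and 11.0% for the 100 brightest and 25.7% in BOUNTIFUL for the 400 brightest. Re-ranking leaves each ratio as it is. Under the 7 scalings and pseudocounts, which can change a ratio, 67 of 77 values of the 2-fold members stayed 2-fold in the same direction, 10 fell short of it and 0 reversed. Those that fell short were SWEET11, BCAT4 and 261144_s_at under both spike scalings, and 261979_at under these, median centring and quantile normalisation. Much of the count of 67 was set in advance. Median centring and both spike scalings raise every BOUNTIFUL signal relative to Ws-0, so the 7 higher members could not fall short under them. The larger pseudocount, 24.8 units, was small beside the members' signals.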
